A study of Mus musculus with 12 samples.

Results

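Aged interfollicular epidermis (IFE) was compared with young IFE on 2 of the 12 arrays of the series, 1 array a group, chosen by their labels. The IFE cells were sorted by flow cytometry as high for both ITGA6 and SCA1, from wild-type C57BL/6 mice of at least 22 months (aged) or 8 weeks (young). Total epidermal cells of wild-type C57BL/6 mice of the same ages, again 1 array a group, were used beside them. Hair follicle stem cells (HFSCs, a CD34-high, ITGA6-high and SCA1-negative sort) of the same ages, with and without plucking of the hair 3 days earlier, entered 1 fit only. The remaining 4 arrays held HFSCs, plucked or not, of 12-week-old wild-type control and Col17a1 cKO mice (K14 promoter), both given tamoxifen (2 mg, 5 days), and were used to count on how many arrays a gene was detected. The study concerned hair follicle aging, and this comparison asks which transcripts differ with age in the epidermis between the follicles. The labels do not say whether samples came from separate animals or from pools, so any p-value covers the spread among these samples alone, and that spread may be technical.

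The IFE is the stratified sheet of skin between hair follicles. Its basal keratinocytes sit on the basement membrane through hemidesmosomes, divide, and send cells upwards. Suprabasal cells switch to keratins of the spinous layer and then build the granular and cornified layers from loricrin, filaggrin and late cornified envelope proteins, sealed with ceramides, very long chain fatty acids and cholesterol. ITGA6, an integrin subunit of the hemidesmosome, marks the basal cells.

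Levels below are log2 processed signals minus the 75th percentile of the array, and a difference is the aged level minus the young level. On the aged IFE array 62.02% of spots were well above background and on the young IFE array 53.27%, with 56.39% and 64.97% in aged and young total epidermis. The 12 arrays ranged from 49.71% to 64.97%. All 8 aged and young arrays lay on slide 1 and scan 1, the aged ones in slide row 2 and the young ones in row 1, and the effects of age and of slide row cannot be told apart. The basal markers were bright on both arrays: Krt5, a basal keratin, stood at 8.56 in aged and 8.63 in young IFE, and Trp63, the transcription factor p63 of the basal layer, at 7.36 and 7.33 in aged and young IFE. Itga6, at 5.77 in aged and 5.75 in young IFE, Ly6a, which encodes SCA1, at 3.69 in aged and 4.37 in young IFE, and Col17a1, the transmembrane collagen of the hemidesmosome, at 6.47 in aged and 6.64 in young IFE, differed by less than 2-fold. Cd34, the HFSC sorting marker, was not well above background in aged IFE and stood at -3.04 in young IFE, at least 1.91-fold lower in aged cells. The labelled population thus carried its defining markers on both arrays.

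Of 34763 gene names on the array, 23277 were well above background on at least 1 IFE array and were kept. At least 2-fold higher in aged IFE were 1994 (8.57%), and at least 2-fold lower were 827 (3.55%). Most of these genes were dim. Where the brighter array lay below -2, 23.2% of 5064 genes were higher in aged IFE by at least 2-fold and 5.06% were lower; where it lay at 2 or above, the shares were 0.868% and 0.926% of 5186 genes. Among the 19760 genes well above background on both arrays, 561 stood higher and 524 lower in aged IFE, and the median difference was 0.02. The other 1433 higher and 303 lower genes were well above background on the brighter array only, and for such genes the fold is given as a lower bound, taken against the lowest signal well above background on the dimmer array or the dim probe's own signal, whichever was higher. Where the dim probe's own signal was the higher, the bound is the measured fold. It holds for the processed signal only, and normexp background correction could give smaller folds. At these bounds 1197 genes stood higher by 2-fold or more and 809 lower. The median difference of all kept genes was 0.09, and centring the arrays on their medians moved it to -0.14, with 1484 genes higher and 1375 lower. Quantile scaling gave 1517 and 1106, and normexp background correction with quantile scaling 229 and 203.

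**Figure D1:**
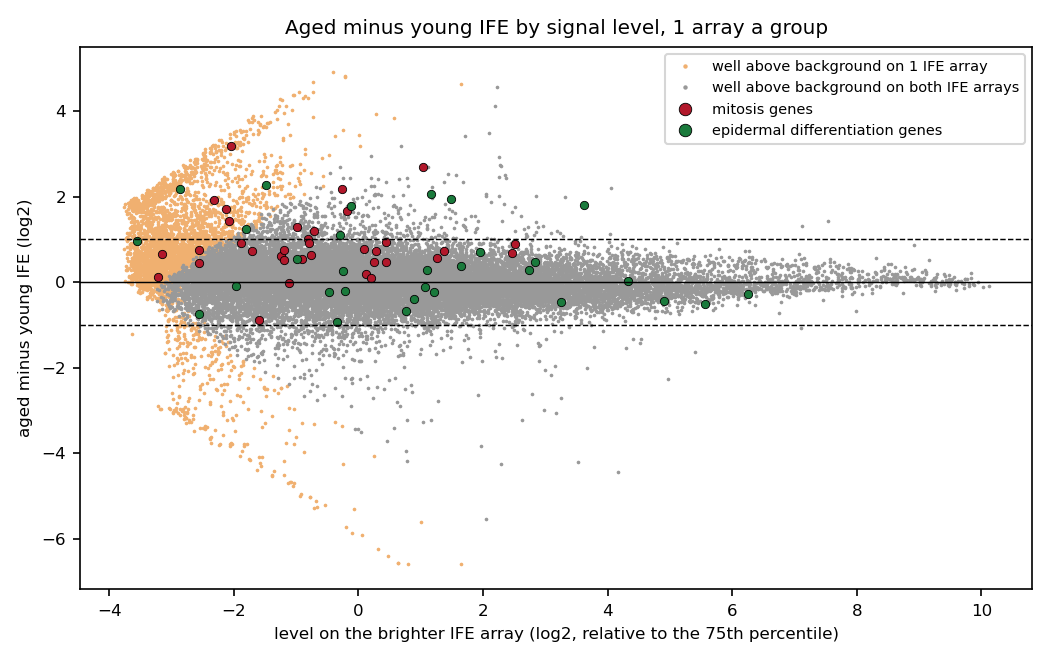
Difference between aged and young IFE (log2, vertical axis) against the level on the brighter of both arrays (log2, relative to the 75th percentile, horizontal axis), 1 point per kept gene and 1 array a group. Orange points were well above background on 1 array only and fan out at low levels; grey points were so on both; red and green points are the mitosis and epidermal differentiation genes, and dashed lines mark 2-fold.

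No test within IFE is possible with 1 array a group, and 2 measures stand in as a description of precision. Among 399 probes printed in 10 spots each, those well above background had a median SD between spots of 0.10 on the aged and 0.09 on the young array. Between different probes of the same gene, the SD of the aged minus young difference was 0.46 over 5638 genes. Only probes well above background on both IFE arrays entered this comparison of probes. Of 339 other such probes of genes at least 2-fold apart, 269 (79.4%) lay in the same direction and 103 were themselves at least 2-fold apart. The 1433 higher and 303 lower calls at a probe well above background on 1 array only are not described by these shares. Neither measure holds any difference between animals, sorts or amplifications.

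Genes of mitosis stood higher in aged than in young IFE as a group. Of 35 kept genes of this list, 33 were higher (56.6% of all kept genes were, by any amount). At least 2-fold higher were 10, against 8.57% of all kept genes, and 0 were at least 2-fold lower, against 3.55%. Among all kept genes the 2-fold higher share was 8.48% where the brighter array lay from -2 to 0, and 23.2% below -2. The median difference of the list was 0.73, against 0.09 over all kept genes, and lay between 0.43 and 0.78 under the other scalings. The summed linear signal of the list, in units of the array's 75th percentile, was 35.9 in aged and 20.9 in young IFE. Total epidermis ran the same way, with 15 genes higher by at least 2-fold and 0 lower (5.2% and 6.93% of its 24332 kept genes), a median of 0.93, and a summed signal of 31.7 in aged and 13.8 in young cells. In sorted and bulk samples alike, more cells of a kind and more RNA per cell cannot be told apart.

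Many promoters of mitosis genes carry the CCAAT box, bound by NF-Y, and the cell cycle genes homology region, which reads TTTGAA and is bound by the DREAM and MuvB complexes. The 150 bases before the start are shown for the 4 mitosis genes at least 2-fold higher in aged IFE with the largest measured difference and an entry in the RefSeq promoter table (build GRCm38.p6), because these genes stood together. For Cenpf, Nuf2 and Ttk that difference was measured against a young signal not well above background, so their order holds no rank. They lie at chr1:189688087-189688236 (Cenpf, minus strand), chr19:37376232-37376381 (Kif11, plus strand), chr1:169531465-169531614 (Nuf2, minus strand) and chr9:83834539-83834688 (Ttk, plus strand). Capitals mark CCAAT or TTTGAA on either strand, each searched without regard to the other.
Cenpf: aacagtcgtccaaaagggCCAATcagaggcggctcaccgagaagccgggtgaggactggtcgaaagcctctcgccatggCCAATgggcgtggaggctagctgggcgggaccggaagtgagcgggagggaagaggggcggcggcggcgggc
Kif11: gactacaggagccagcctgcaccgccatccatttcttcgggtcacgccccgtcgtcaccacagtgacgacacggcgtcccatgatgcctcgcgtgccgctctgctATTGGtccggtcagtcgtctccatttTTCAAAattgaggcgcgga
Nuf2: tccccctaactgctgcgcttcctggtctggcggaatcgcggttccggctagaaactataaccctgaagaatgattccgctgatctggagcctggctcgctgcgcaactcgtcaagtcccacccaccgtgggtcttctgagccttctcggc
Ttk: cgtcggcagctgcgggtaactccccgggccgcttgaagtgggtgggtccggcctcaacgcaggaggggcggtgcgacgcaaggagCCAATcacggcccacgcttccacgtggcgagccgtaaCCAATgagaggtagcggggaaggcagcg
Cenpf and Ttk hold 2 CCAAT boxes each, Kif11 holds 1 CCAAT box and 1 TTTGAA, and Nuf2 holds neither motif in these letters. Over the window from 250 bases before to 50 after the start, 29 of the 35 mitosis genes had an entry. CCAAT was present in 21 of them (72.4%), TTTGAA in 21 (72.4%) and both in 18 (62.1%). Over all 27025 genes of the table the shares were 41.1%, 20.2% and 7.97%. In the epidermal differentiation list, described below, 40.0% of 25 promoters held CCAAT, 20.0% TTTGAA and 8.0% both. A match is a description of the sequence and shows no binding.

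Among spindle genes, Tpx2, which activates Aurora A on spindle microtubules (mm9 chromosome 2, 152719476 to 152719535), stood at 1.03 in aged and -1.67 in young IFE, 6.51-fold higher in aged cells, with a difference of 1.59 as the mean over its 2 probes in place of 2.70. Kif11, the kinesin that pushes spindle poles apart, stood at -0.26 in aged and -2.46 in young IFE, a 4.58-fold difference. Both were well above background on both arrays, and on 8 of the other 10. Nusap1, a spindle microtubule binder, and Kif23, a kinesin of the midbody, stood 2.27-fold and 2.03-fold higher in aged IFE. Kif23 passed 2-fold under 1 of 4 other scalings, and its difference was 0.21 as the mean over its 2 probes, 1 of them not well above background. Cyclin A2, encoded by Ccna2, had levels of -0.19 in aged and -1.84 in young IFE and was 3.15-fold higher in aged cells.

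Genes of the kinetochore, the protein plate that ties chromosomes to the spindle, lay mostly in the same direction. Ndc80, its main microtubule-binding subunit, stood at -0.98 in aged and -2.28 in young IFE, a 2.46-fold difference. Cenpf, a kinetochore protein of late cycle phases, Nuf2, the partner of Ndc80, and the checkpoint kinase gene Ttk were well above background in aged IFE only, at least 3.01-fold, 2.51-fold and 2.87-fold higher. The same held for Top2a, the topoisomerase that untangles chromosomes, at least 2.67-fold higher. The bound of Nuf2 holds for the probe used, and its difference was 0.92 as the mean over all its probes in place of 1.91. Spc24, a subunit of the same Ndc80 complex, lay the other way, at -2.48 in aged and -1.59 in young IFE, and Mad2l1, a checkpoint protein, differed by -0.01.

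With normexp correction Tpx2 (2.04), Kif11 (1.31) and Ccna2 (1.13) passed 2-fold and the other called mitosis genes lay between 0.41 and 0.77. Mki67 and Birc5, markers of cycling cells, were less than 2-fold apart. Mki67 stood at 2.52 in aged and 1.63 in young IFE, and its 2 probes gave 0.87 and 0.90. Birc5, which encodes survivin, stood at 2.47 in aged and 1.79 in young IFE. Aurkb, a kinase of the chromosomal passenger complex, was well above background on neither IFE array and was not kept. In the fit over aged and young IFE and total epidermis, described below, Tpx2 differed by 1.80 ± 0.51 (SE, n = 2 pairs of arrays, limma adjusted p = 0.71) and Mki67 by 1.24 ± 0.29 (adjusted p = 0.663).

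**Figure D2:**
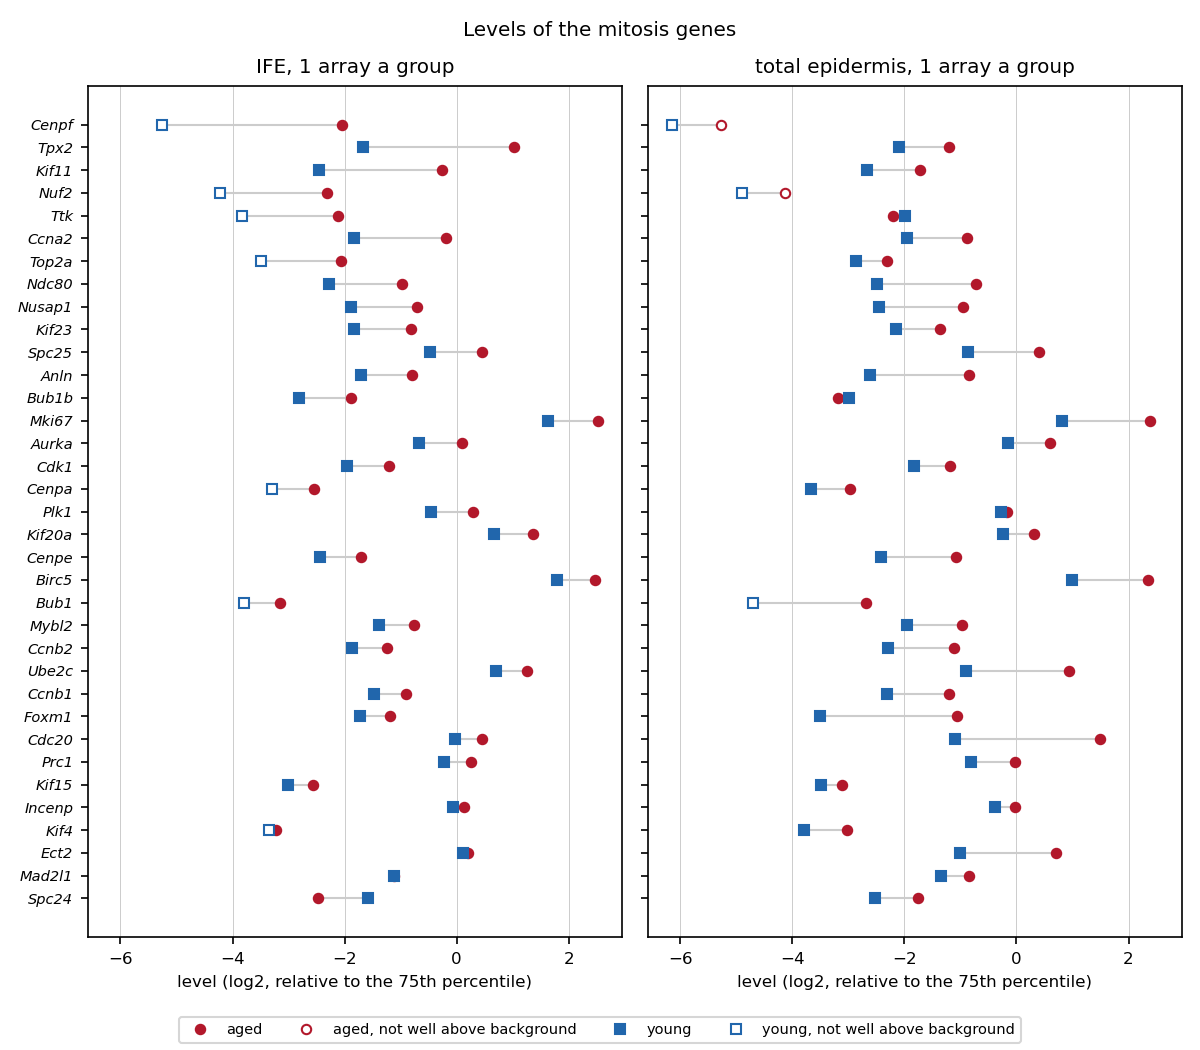
Levels of the 35 kept mitosis genes (log2, relative to the 75th percentile) in aged (red circles) and young (blue squares) cells, IFE on the left and total epidermis on the right, 1 array a group, with open symbols where the probe was not well above background. In IFE the aged symbol lies to the right of the young one for 33 of 35 genes.

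Replication and repair genes leaned in the same direction by smaller amounts. Of 29 DNA replication genes, 25 stood higher in aged IFE by any amount (median 0.32), where 56.6% of all kept genes were. Only 2 of them were at least 2-fold higher, where 8.57% of all kept genes were. Tyms, the thymidylate synthase gene, stood at -0.09 in aged and -1.18 in young IFE. Pole, the catalytic subunit of polymerase epsilon, was at least 2.36-fold higher, and differed by 0.32 with normexp correction. The 3 probes of Pole ranged from 0.03 to 1.72. Of 25 repair genes, 21 stood higher by any amount (median 0.38), against the same 56.6%. At least 2-fold apart were 3 higher and 1 lower, against 8.57% and 3.55% of all kept genes. Neil3, a DNA glycosylase, was at least 2.98-fold higher in aged IFE, and differed by 0.49 with normexp correction. Fanci, of the Fanconi anaemia complex, stood at 0.49 in aged and -0.89 in young IFE, with a difference of 0.94 as the mean over all its probes. Bard1, the partner of BRCA1, stood at -1.68 in aged and -2.90 in young IFE at 1 probe, with a mean difference of 0.19 over its 3 probes. Chek2, a checkpoint kinase, was 2.92-fold lower in aged cells. Of 17 CDK inhibitor and G1 genes, 16 lay within 2-fold, and Cdkn1c, which encodes p57 and was not well above background in young IFE, stood higher in aged cells by at least 1.74-fold.

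Several cornified envelope genes stood higher in aged IFE. Of 30 kept genes of the epidermal differentiation list, 8 were at least 2-fold higher in aged IFE (8.57% of all kept genes were) and 0 lower. By any amount 17 of 30 were higher, where 56.6% of all kept genes were, and the list median was 0.28. That median was 0.05 with median centring and 0.03 over the genes well above background on both arrays. Lor, which encodes loricrin, the main protein of the cornified envelope (chromosome 3, 91884206 to 91884265), stood at 3.62 in aged and 1.80 in young IFE, 3.51-fold higher in aged cells. Flg2, a filaggrin relative, stood at -0.12 in aged and -1.90 in young IFE, 3.43-fold higher. Flg, the filaggrin gene, whose product bundles keratin, stood at 1.17 in aged and -0.89 in young IFE at the probe used, a 4.18-fold difference, but its other probe gave a difference of 0.18.

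The late cornified envelope gene Lce1m stood at 1.48 in aged and -0.46 in young IFE, 3.83-fold higher. Lce1a1 and Lce1b, well above background in aged IFE only, were at least 4.43-fold and 1.71-fold higher. The Lce1 genes are near-identical copies that a probe may not tell apart. Asprv1, the protease that processes filaggrin, was 2.14-fold and Cnfn, encoding the envelope protein cornifelin, 2.37-fold higher in aged cells, and both of these fell within 2-fold with normexp correction (0.74 and 0.48), as did Lce1b (0.35) and Lce1a1 (0.79). The spinous keratins lay the other way by less than 2-fold. Krt1 stood at 5.06 in aged and 5.57 in young IFE, and Krt10 at 4.48 in aged and 4.91 in young IFE. Ivl, the involucrin gene, and Hrnr, the hornerin gene, differed by -0.10 and -0.20.

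Total epidermis ran the other way. There, 16 of 32 kept differentiation genes were at least 2-fold lower in aged cells and 0 higher, with a median of -1.06. Of all genes kept in total epidermis, 6.93% were at least 2-fold lower and 5.2% higher. Lor differed by -1.26, Flg2 by -2.65 and Flg by -3.20 in total epidermis. In the fit with an age-by-IFE term over 8 arrays, the IFE difference exceeded that of the other 3 populations for Lor, Flg2 and Flg. The excess was 2.33 ± 0.73 for Lor, 2.86 ± 1.12 for Flg2 and 4.03 ± 0.95 for Flg (SE, 2 residual degrees of freedom), and limma called none of them. With 1 IFE pair, the SE holds only the spread among the other populations. The summed signal of the list was 199 in aged and 218 in young IFE, and 256 in aged and 455 in young total epidermis. In IFE the sum thus lay lower and the median higher in aged cells.

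Genes that build the lipids of the barrier stood lower in aged IFE as a group, though most by less than 2-fold. Of 21 genes, 17 were lower (43.4% of all kept genes were), 2 of them at least 2-fold (against 3.55%), 0 were at least 2-fold higher, and the median of -0.40 lay between -0.62 and -0.34 under the other scalings. Sptlc2, a subunit of the enzyme that starts ceramide synthesis, stood at -0.52 in aged and 0.63 in young IFE, 2.22-fold lower. Its difference was -0.93 as the mean over all its probes in place of -1.15. Fa2h, which hydroxylates the fatty acids of ceramides, was at least 3.85-fold lower in aged IFE, and differed by -0.72 with normexp correction. Aloxe3, a lipoxygenase of the barrier, stood at 1.05 in aged and 1.78 in young IFE. Elovl4, which makes very long chain fatty acids, stood at 4.34 in aged and 4.80 in young IFE, and Fabp5, the epidermal fatty acid binding protein gene, at 2.86 in aged and 3.50 in young IFE. Alox12b, the lipoxygenase upstream of Aloxe3, lay the other way, at -0.73 in aged and -1.33 in young IFE. In total epidermis the median was -0.70, with 7 genes at least 2-fold lower and 0 higher, against 6.93% and 5.2% of all genes kept there.

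Cholesterol synthesis genes showed 0 of 19 at least 2-fold apart in IFE, with a median of 0.28 (0.05 to 0.33 under the other scalings). By any amount 14 were higher in aged cells, where 56.6% of all kept genes were. Sqle, squalene epoxidase, stood at 2.42 in aged and 1.96 in young IFE, and Msmo1, a sterol oxidase, at 1.33 in aged and 1.79 in young IFE. In total epidermis the median was -0.76 and 4 genes were at least 2-fold lower in aged cells, where 6.93% of all kept genes were. Sebaceous markers had a median of -1.34 in total epidermis, where 8 stood at least 2-fold lower, against 6.93% of all genes kept there. In IFE their median was 0.04. There Plin2, a lipid droplet protein gene, was 3.91-fold and Mgst1 at least 2.39-fold lower in aged cells. With normexp correction these differed by -0.88 and -0.39. The part of sebaceous cells in the lipid results was not tested.

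**Figure D3:**
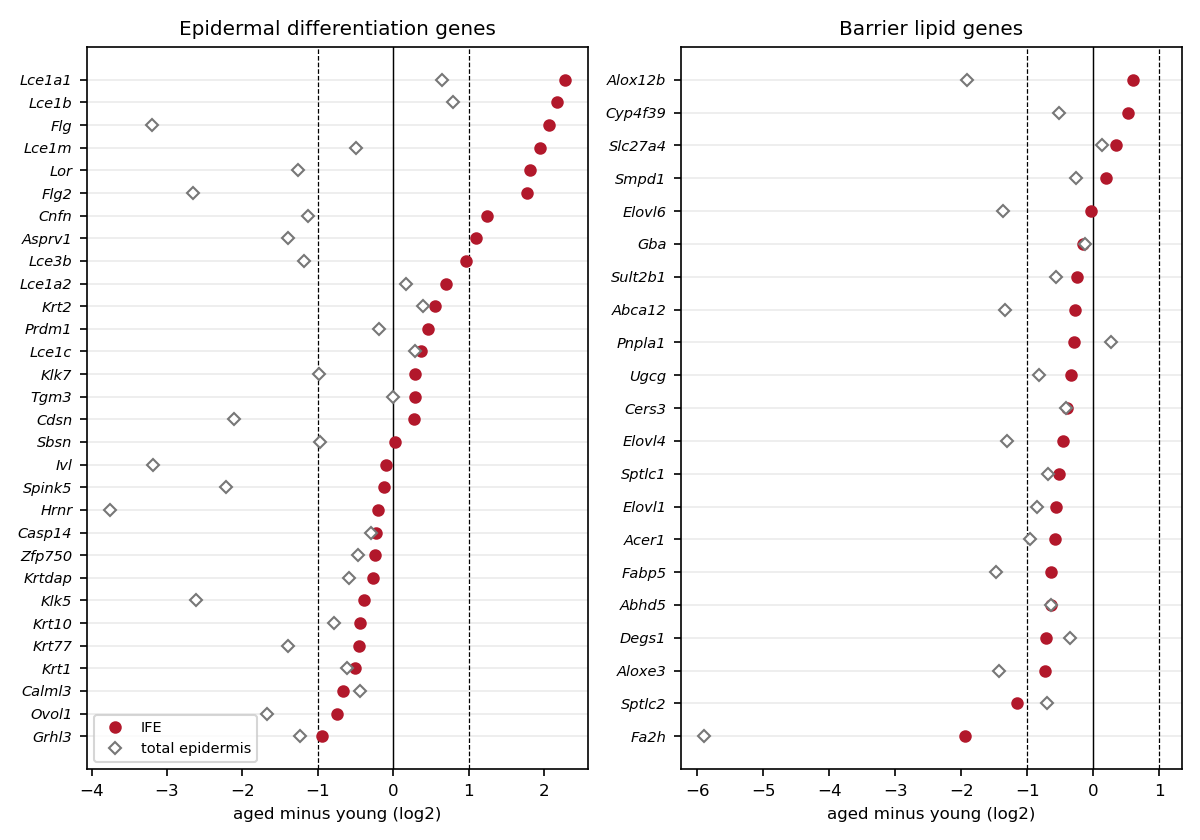
Aged minus young difference (log2) of the kept epidermal differentiation genes (left) and barrier lipid genes (right), in IFE (red circles) and total epidermis (open diamonds), 1 array a group; dashed lines mark 2-fold. Lor, Flg, Flg2, Cnfn and Asprv1 lie beyond 2-fold to the right in IFE and to the left in total epidermis, while most barrier lipid genes lie left of 0 in both.

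Immediate early genes, which switch on within minutes of a stimulus and also during tissue dissociation, included bright genes that differed: of the 5186 genes at a level of 2 or above, 45 stood at least 2-fold higher in aged IFE, Fosb and Egr1 among them. Fosb, an AP-1 subunit (chromosome 7, 19888168 to 19888227), stood at 7.53 in aged and 6.11 in young IFE, 2.69-fold higher in aged cells. Egr1, a zinc finger factor, stood at 7.12 in aged and 5.82 in young IFE, 2.47-fold higher. Klf2, a Krüppel-like factor, stood at 0.11 in aged and -1.16 in young IFE, 2.40-fold higher. The remaining 18 of 21 kept genes lay within 2-fold, among them Fos (4.89 in aged and 4.06 in young IFE) and Jun, which differed by 0.05. The list median was 0.19, which turned to -0.04 with median centring, while the summed signal was 682 in aged and 443 in young IFE. In total epidermis 8 genes passed 2-fold as higher and 0 as lower (median 0.47), with Fosb at 1.28. Of all genes kept there, 5.2% were at least 2-fold higher and 6.93% lower.

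Among markers of the follicle, those of the bulge leaned lower in aged IFE. Of 8 kept genes 3 were at least 2-fold lower (3.55% of all kept genes were) and 0 higher, with a median of -0.49, which was -0.22 over genes well above background on both arrays and -0.31 with normexp. By any amount 6 of 8 were lower, where 43.4% of all kept genes were. Sox9, the bulge transcription factor, stood at -1.70 in aged and 0.86 in young IFE, 5.91-fold lower. Postn, which encodes the matrix protein periostin, was 2.49-fold lower. Cd34 is the other of the 3, at least 1.91-fold lower at its bound, so 2-fold is not shown for it. With normexp correction the differences were -1.88 for Sox9, -0.39 for Postn and -0.50 for Cd34. Krt15, a keratin of bulge and basal cells, stood at 6.14 in aged and 6.36 in young IFE. In the infundibulum and junctional zone list, 1 of 10 genes was 2-fold apart: Sostdc1, a secreted BMP and Wnt antagonist, stood at 2.74 in aged and 4.29 in young IFE, 2.93-fold lower, with both probes lower (-1.84 and -1.55). In total epidermis its difference was -1.32.

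Adhesion genes of the basement membrane differed little. Of 19 hemidesmosome and basement membrane genes 1 was at least 2-fold lower in aged IFE and 0 higher, against 3.55% and 8.57% of all kept genes. Itga3, the alpha 3 integrin gene, was the 1 lower, at 0.22 in aged and 1.23 in young IFE. Lamb3, a laminin chain of the basement membrane, stood at 3.88 in aged and 4.36 in young IFE. The median of 0.02 turned to -0.21 with median centring. Of 20 junction genes, Gjb6, which encodes connexin 30, was at least 2.88-fold lower in aged IFE, and the tight junction gene Ocln was lower as well. With normexp correction Gjb6 differed by -0.56 and Ocln by -0.37.

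Large housekeeping sets leaned lower by small amounts. Of 81 respiratory chain genes, 67 stood lower in aged IFE (median -0.21), 1 of them at least 2-fold: Ndufs8, a complex I subunit, at -1.44 in aged and -0.27 in young IFE. Of 38 proteasome genes 33 stood lower (median -0.17), and of 79 cytosolic ribosomal protein genes 62 did (median -0.11). Over all kept genes 43.4% stood lower by any amount. In total epidermis the ribosomal median was 0.19, with 70 genes higher in aged cells, where 49.6% of all kept genes were higher and 50.4% lower. None of the 3 IFE medians exceeded in size the shift that median centring puts on every gene. That shift is downward, and it moved the respiratory chain, proteasome and ribosomal medians in IFE to -0.44, -0.40 and -0.34. They stayed below 0 under all the other settings.

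**Figure D4:**
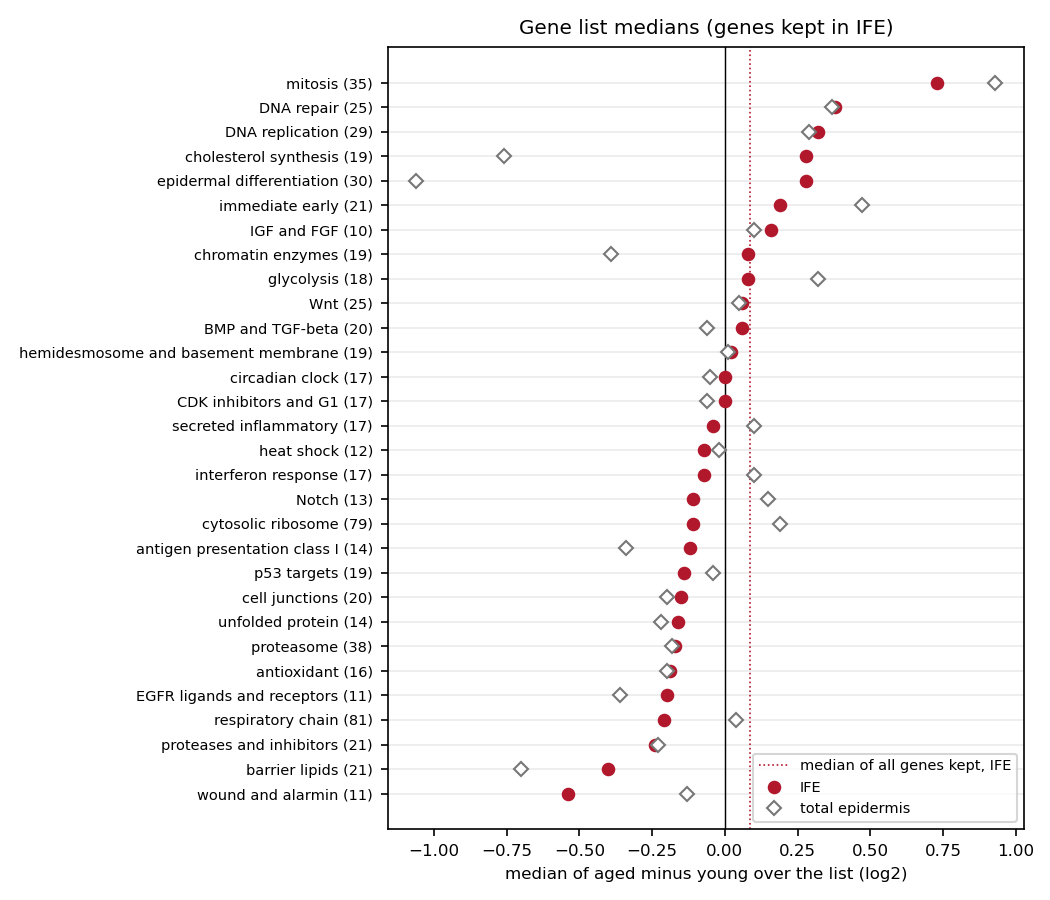
Median aged minus young difference (log2) of each pathway list in IFE (red circles) and total epidermis (open diamonds), 1 array a group, with the number of genes kept in IFE in brackets. The dotted line marks the median of all kept genes in IFE (0.09); mitosis lies farthest right in both populations, at 0.73 in IFE, and wound and alarmin genes farthest left in IFE, at -0.54.

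Signalling lists held few genes beyond 2-fold. In the Notch list Lfng, which modifies Notch receptors, stood at 2.96 in aged and 1.66 in young IFE, and Hes1, a Notch target, at 1.68 in aged and 3.01 in young IFE. Nrg1, an ERBB ligand, was 2.66-fold higher in aged IFE. Among Wnt genes the receptor Fzd1 was 2.08-fold and the antagonist Sfrp1 2.06-fold lower, and Bmp7, a BMP ligand, was 2.42-fold lower. Of stress genes, Trib3, a pseudokinase induced by the unfolded protein response, stood at -1.80 in aged and 0.49 in young IFE. Hsph1, a heat shock chaperone, stood at 3.07 in aged and 4.41 in young IFE, Gstm1, a glutathione transferase, at 2.26 in aged and 3.78 in young IFE, and Gadd45a, a p53 target, at 0.22 in aged and 1.26 in young IFE. Each of these lists had a median between -0.20 and 0.06, and those of the Wnt and BMP lists, both 0.06, turned negative with median centring.

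Wound and alarmin genes, of which 11 of 22 were kept, had a median of -0.54 in IFE and -0.13 in total epidermis. Defb1, a defensin, stood at -1.59 in aged and 0.26 in young IFE, 3.61-fold lower, and the stefin Stfa1 was at least 15.0-fold lower. The difference of Stfa1 was -2.06 with normexp correction. The keratins of activated epidermis Krt6b, Krt16 and Krt17 differed by -0.74, -0.56 and -0.54. S100a9, an alarmin subunit, and Sprr2d were well above background in aged IFE only, at least 1.02-fold and 1.73-fold higher. In the secreted inflammatory list (17 kept genes, median -0.04), 4 stood higher in aged IFE by at least 2-fold and 2 lower. Over all kept genes the shares were 8.57% and 3.55%. Igfbp3, an IGF binding protein, stood at 2.39 in aged and 1.39 in young IFE, and Gdf15 and Tnf, encoding cytokines, were at least 2.20-fold and 2.06-fold higher. The remaining higher gene differed by 0.09 at its bound, so 2-fold is not shown for it. With normexp correction the differences were 1.01 for Igfbp3, 0.35 for Gdf15 and 0.52 for Tnf. The cytokine gene Il1b was at least 2.32-fold and the chemokine gene Cxcl1 at least 2.38-fold lower in aged IFE, with differences of -0.35 and -0.45 with normexp correction.

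Markers of other cells that the sort could hold were measured beside these groups. Of 17 T cell genes on the array 11 were kept. Of these, 9 were higher in aged IFE by any amount (median 0.68), where 56.6% of all kept genes were. The summed signal of the list was 20.6 in aged and 17.3 in young IFE. Cd3e, a T cell receptor subunit, stood at -0.52 in aged and -1.22 in young IFE, Gzmb, a granzyme, was at least 1.94-fold higher, and Il2rb, a cytokine receptor chain, 2.83-fold lower. Of 17 Langerhans and myeloid genes 14 were kept, 8 of them higher and 6 lower in aged IFE. Their median was 0.08 and their summed signal 235 in aged and 252 in young IFE. Cd207, the langerin gene that defines Langerhans cells, was well above background on neither array. The class II gene H2-Aa stood at -3.11 in aged and -0.86 in young IFE, and Ctss, the cathepsin of antigen presentation, was at least 3.53-fold lower. With normexp correction H2-Aa differed by -1.10 and Ctss by -0.58. No other kept gene of this list was 2-fold apart, and the largest difference the other way was 0.91. Of 5 kept melanocyte genes 3 stood higher and 2 lower in aged IFE (median 0.29). Fibroblast, endothelial, mast cell and muscle lists kept 2 to 5 genes each. The part of any of these cells in the results was not tested.

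Single genes farthest apart were picked among those named in RefSeq, well above background on both arrays and with the brighter array at or above its 75th percentile. Predicted-gene names (Gm, Rik or LOC) were left out. So were genes whose probes well above background on an IFE array differed in direction. Those picked included several detected on few other arrays. Ucn3, a peptide of the corticotropin-releasing factor family, stood at 2.22 in aged and -2.35 in young IFE, 23.8-fold higher, and was well above background on 2 of the other 10 arrays. Scn7a, a sodium channel gene, was 17.3-fold higher in aged IFE and well above background on 0 other arrays. Lower in aged IFE were Lif, a cytokine gene, at -1.97 in aged and 2.30 in young IFE (19.2-fold), Umod, the uromodulin gene (18.2-fold), Npffr2, a neuropeptide receptor gene (15.5-fold), and Col9a3, a collagen of cartilage (13.2-fold), each well above background on 1 other array.

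Other genes of this kind were detected on all 10 other arrays. Slc15a2, a peptide transporter, stood at 1.12 in aged and -1.57 in young IFE, 6.45-fold higher, and at 1.25 in aged and -3.43 in young total epidermis. Irx4, an Iroquois homeobox factor, was 5.73-fold higher, and Casp1, the inflammasome caspase, stood at 1.57 in aged and -0.93 in young IFE, 5.69-fold higher. Cpa4, a carboxypeptidase, was 5.32-fold and Wnt2b, a Wnt ligand, 4.17-fold higher. Gpha2, a glycoprotein hormone subunit, stood at 4.06 in aged and 1.87 in young IFE, and at 3.70 in aged and 1.34 in young total epidermis. Lower in aged IFE were Zc3hc1 (9.36-fold), the histone gene H2bc4 (9.37-fold), whose family holds near-identical copies, Syne3, which encodes nesprin 3 (6.58-fold), and Rps4l, a ribosomal protein gene (5.70-fold), which also has close relatives.

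**Figure D5:**
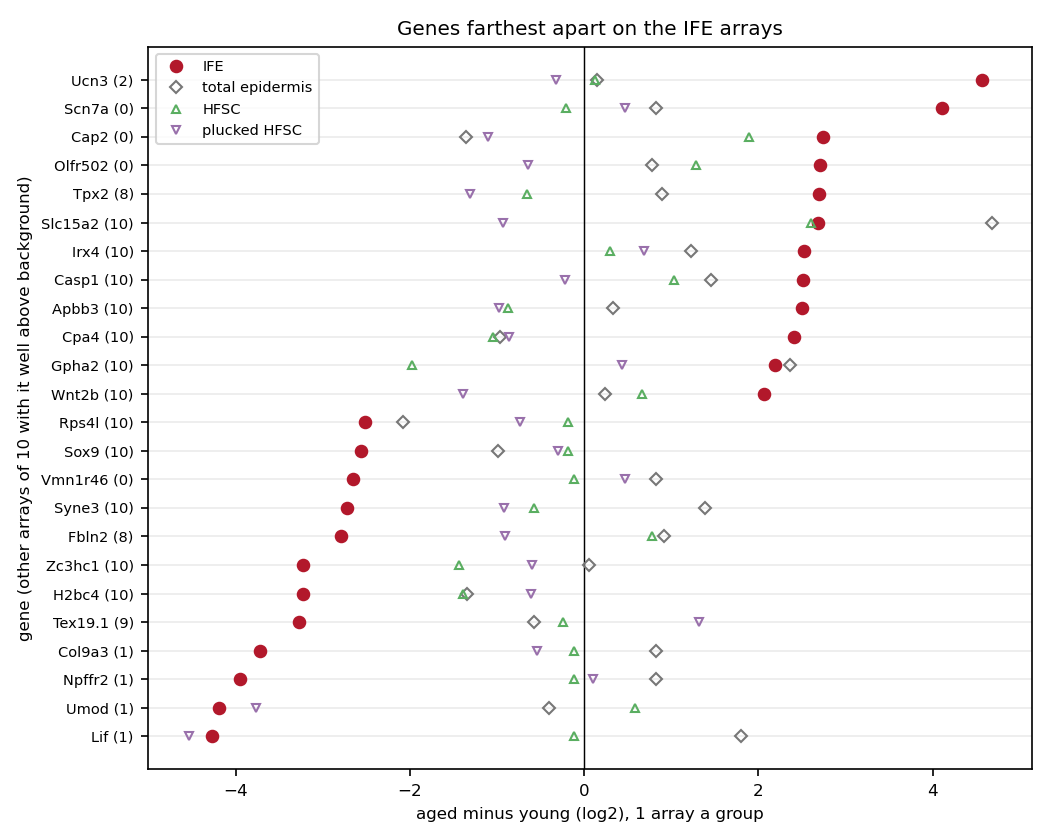
Aged minus young difference (log2) of the 12 genes farthest apart in each direction on the IFE arrays by the stated filters, in IFE (red circles), total epidermis (diamonds), HFSCs (upward triangles) and plucked HFSCs (downward triangles), 1 array a group. The number in brackets counts the other arrays, of 10, with the gene well above background; Slc15a2, Gpha2 and Rps4l lie on the same side in total epidermis beyond 2-fold, whereas Ucn3 lies at 0.15 there.

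Of genes well above background on 1 IFE array only, under the same name and probe direction filters, the largest lower bounds in aged IFE were those of Tmprss11f, a serine protease (at least 24.9-fold), Alk, a receptor tyrosine kinase (at least 15.2-fold), Bcl2a1d, an anti-apoptotic gene with near-identical copies (at least 14.4-fold), and Il25, a cytokine (at least 10.8-fold). In log2 these bounds were 4.64, 3.93, 3.85 and 3.43. With normexp correction the differences were smaller, at 3.02, 2.07, 2.17 and 1.70. The bound of Tmprss11f holds for 1 of its 2 probes, and its difference was 2.01 as the mean over both in place of 4.64. Lower in aged IFE were Efcab3 (at least 49.2-fold), at 1 of its 5 probes, with a difference of -1.56 as the mean over all of them, and Osr1, a transcription factor (at least 24.6-fold). With normexp correction Efcab3 differed by -3.29 and Osr1 by -2.63. Tmprss11f, Alk, Il25 and Osr1 were well above background on 3 and Bcl2a1d and Efcab3 on 2 of the other 10 arrays.

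IFE and total epidermis were set beside each other over the 22391 genes kept in both, measured on separate arrays. Of 1505 genes at least 2-fold higher in aged IFE, 238 (15.8%, and 27.9% of the 854 higher in total epidermis) were also higher in total epidermis, where 3.81% of all these genes were, and 182 (12.1%, and 18.4% of 990) were lower there, against 4.42%. Of 700 genes lower in aged IFE, 132 (18.9%, and 13.3% of 990) were also lower in total epidermis and 78 (11.1%, and 9.13% of 854) were higher. Across the 19203 genes well above background on all 4 arrays the differences had r = 0.16, and 56.0% had the same sign. Genes are not independent, and the arrays of an age shared a slide row.

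A fit of population and age over these 4 arrays, in which age must agree between IFE and total epidermis, has 1 residual degree of freedom. It called 0 of 22825 genes higher and 0 lower (limma, Benjamini-Hochberg, smallest adjusted p = 0.586, 0.0% in each direction), and 1488 had an unadjusted p under 0.05. The genes named next, from Gpha2 to Abi3bp, were picked for the smallest p of this fit in each direction. Their agreement between the 2 pairs follows from that choice and is no further support. Gpha2 differed by 2.28 ± 0.25 (SE, n = 2 pairs, limma adjusted p = 0.586), higher in both pairs. Rmrp, the RNA of RNase MRP, stood at 0.93 in aged and 2.99 in young IFE and differed by -2.15 ± 0.25 (adjusted p = 0.586), lower in both pairs. Casp4, an inflammatory caspase, Ckap2, a spindle protein, and Dnajc6, a co-chaperone, were higher in both pairs, and Gpnmb, a melanosomal glycoprotein, Adh1, an alcohol dehydrogenase, and Abi3bp, a matrix protein, lower in both (adjusted p = 0.586 for Casp4, Ckap2, Dnajc6, Gpnmb and Adh1 and 0.605 for Abi3bp). With eBayes allowed to follow the mean level, 15 genes passed as higher and 8 as lower, among them Gpha2 (adjusted p = 0.0112), Alk (0.0112), Fosb (0.0149), Rmrp (0.0123) and Sostdc1 (0.0445).

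Whether the age difference in IFE departs from that in total epidermis, HFSCs and plucked HFSCs was tested over 8 arrays with an age-by-IFE term. It called 0 of 24821 genes in either direction (limma, smallest adjusted p = 1.0), and 593 had an unadjusted p under 0.05. Ucn3 departed by 4.59 ± 0.57 and Cpa4 by 3.37 ± 0.54 (SE, 2 residual degrees of freedom), and neither was called. With 1 IFE pair, the SE holds only the spread among the other populations, and IFE was assumed to vary like them. Ucn3 was not well above background in aged or young total epidermis, at -3.77 and -3.92, so its SE holds background values.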

How the data were processed

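Gene expression was measured on 12 Agilent 1-colour arrays, 1 per group. Per the labels' protocols, total RNA of 1 to 10 ng was purified with RNeasy micro, amplified with Ovation Pico WTA V2 and labelled with Cy3 (SureTag). The deposited spot intensities were made with Agilent Feature Extraction 10.7.3.1 (protocol GE1_107_Sep09), which subtracted a detrended background and replaced low signals by surrogates, per the file headers. Per the file headers, that software also set the deposited flags, which hold 0 or 1. The log2 value table deposited by the authors (55821 probes, a median of 0 per probe) followed the processed signal with r of at least 0.999884. Its making is not given in the sources used here, and scale, direction and centring were read off that match. Its column medians were -0.01 and 0.08 for aged and young IFE.

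Here control spots and 129 to 269 outlier spots per array were dropped, and 0 were saturated. Levels were log2 of the processed intensity, less the 75th percentile of each array, averaged over spots. A gene's probe was the one with the highest mean over the 12 arrays. Of 55681 probes, 28020 matched RefSeq by accession and 27661 kept the file's name. Coordinates are mm9, per the file headers. Kept genes were well above background on at least 1 array of a pair, and called ones lay at least 2-fold apart with the brighter array well above background. Array number, not counting, limits precision. Named genes were the 12 farthest apart in each direction among those well above background on both arrays, the 8 with the largest bounds, the leading and defining members of each list, the sorting markers and the 5 with the smallest p in each fit and direction; beyond 6 members of a list, further members were chosen after their values were seen. The farthest genes, those with the largest bounds and those with the smallest p had RefSeq names, with predicted-gene names left out. All their probes well above background on an IFE array lay in the same direction. The members and the 48 gene lists were chosen with earlier results of these data known. Alternatives were other scalings, normexp, the authors' table, filters, probe choice and 4-fold. Tests used limma 3.58.1 in R 4.3.3 with package data.table, version 1.17.8, tested on simulated data; figures used matplotlib 3.10.9, with pandas 2.3.3 and numpy 2.4.6 in Python 3.11.15. No value from another series was present. 2 genes that the naming rule or a list holds are not reported here.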

Additional observations from a re-analysis of the deposited data

Results flagged for a closer look

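Genes and list medians are given here because the aged minus young difference was at least 2-fold, or 0.25 for a list median, in opposite directions in IFE and total epidermis. Each difference comes from 1 array a group, and whether they differ between the populations was not tested for the lists. For the genes, the age-by-IFE fit over 8 arrays called 0 of 24821 (limma).

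Cornified envelope genes made up the largest group. Lor, the loricrin gene, differed by 1.81 in IFE and -1.26 in total epidermis. Flg, the filaggrin gene, differed by 2.06 in IFE and -3.20 in total epidermis, and Flg2, its relative, by 1.78 and -2.65. As the mean over all its probes Flg differed by 0.54 in IFE. Asprv1, the protease that processes filaggrin, differed by 1.10 in IFE and -1.39 in total epidermis, and Cnfn, the cornifelin gene, by 1.25 and -1.13. With normexp correction Asprv1 and Cnfn fell within 2-fold in IFE, at 0.74 and 0.48. The median of the epidermal differentiation list was 0.28 in IFE and -1.06 in total epidermis, and that of cholesterol synthesis 0.28 and -0.76.

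Immune genes lay apart in both directions. The class II gene H2-Aa differed by -2.24 in IFE and 1.28 in total epidermis, Ctss, a cathepsin, by -2.38 and 1.01, and the chemokine gene Cxcl1 by -1.46 and 2.00. The median of the Langerhans and myeloid list, which holds H2-Aa and Ctss, was 0.08 in IFE and 0.83 in total epidermis. S100a9, an alarmin subunit, differed by 1.96 in IFE and -4.46 in total epidermis, but in IFE it was at least 1.02-fold higher at its bound, so 2-fold is not shown there. Ctss, Cxcl1 and S100a9 were well above background on only 1 of the IFE arrays.

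Bard1, the partner of BRCA1, differed by 1.23 in IFE and -1.06 in total epidermis, with 0.19 in IFE as the mean over its 3 probes and 0.36 with normexp. Kifc1, a kinesin, differed by 2.98 in IFE and -2.57 in total epidermis, and Tmprss11f, a serine protease, by 4.64 and -1.74. As the mean over its 2 probes Tmprss11f differed by 2.01 in IFE. Syne3, the nesprin 3 gene, differed by -2.72 in IFE and 1.39 in total epidermis, Cfap53 by -5.61 and 3.47, Acnat1 by -4.06 and 5.91, and the olfactory receptor gene Olfr50 by -4.25 and 6.07. Kifc1, Tmprss11f, Cfap53, Acnat1 and Olfr50 were well above background on only 1 IFE array, and Cfap53, Acnat1 and Olfr50 on the aged array only in total epidermis. Tmprss11f and S100a9 were so on the young array only there. The differences of these genes therefore depend on a background level.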

How the results depend on the processing

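No paired analysis was possible because each group held 1 array, so the replicate number is 1 throughout and cannot serve as a block; the pairs in the fits are populations. A block for slide row could not be fitted, since each row held 1 age on 1 slide and scan. Against 1994 genes higher in aged IFE by 2-fold or more and 827 lower, normexp with quantile scaling gave 229 and 203, genes well above background on both arrays 561 and 524, and a 4-fold limit 543 and 241. Bounds gave 1197 higher, and median centring 1375 lower. Higher calls made up 70.7% of all calls, 51.9% with median centring, 57.8% with quantile scaling and 51.7% with both arrays well above background. In total epidermis 1265 and 1685 became 358 and 360 with normexp, 801 and 530 with both arrays well above background, and 409 and 482 at 4-fold. There higher calls made up 42.9%, and 60.2% with both arrays well above background. The eBayes trend gave 15 higher and 8 lower with age over IFE and total epidermis, in place of 0 and 0. Gene lists with a median of at least 0.5 in size numbered 7, and 1 with normexp. Of 126 named or listed genes at least 2-fold apart, 68 were so with normexp and 76 with both arrays well above background. Elane, 1.10 in the reported setting, turned to -0.01 with normexp, and the fibroblast list, 0.91 in the reported setting, to -0.54 with both arrays well above background, which leaves fewer genes; the cause for Elane was not tested. Of the other values for genes, 1013 kept their side and direction and 97 fell short of 2-fold, and of list medians 409 did so, 14 fell short of 0.5 and 7 passed it. Leaving out an array leaves no comparison. Signal over background limits the dim genes, and 1 array a group limits all.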

Other observations

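Proteases and inhibitors of the epidermis, lactate handling, interferon genes and hair keratins held few genes beyond 2-fold. Of 21 kept protease and inhibitor genes, Elane, which encodes neutrophil elastase, passed background in aged IFE only and was at least 1.28-fold higher, a direction that normexp correction turned (-0.01). Timp2, a metalloproteinase inhibitor, stood at -2.22 in aged and -1.02 in young IFE at the probe used, while its other probe gave a difference of 0.42. Slc16a3, a lactate exporter, stood at -0.15 in aged and -1.29 in young IFE, the 1 gene of 18 in the glycolysis list that was 2-fold apart. Krt33a, a hair keratin, was 5.19-fold lower in aged IFE.

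Neutrophil markers kept 5 of 10 genes, and Mpo, the myeloperoxidase gene, was at least 1.73-fold higher in aged IFE. Mcpt4, a mast cell protease, was at least 3.93-fold and Krt18, a keratin of Merkel cells, at least 2.06-fold higher. The difference of Mcpt4 was 0.51 with normexp correction. Of 6 Merkel cell markers Krt18 was the 1 kept, and its difference was 0.24 with normexp correction. Acta2, the smooth muscle actin gene, was at least 2.91-fold higher, whereas Myh11, the smooth muscle myosin gene, differed by 0.02. With normexp correction Acta2 differed by 0.48. In the circadian clock, chromatin enzyme, class I antigen presentation and IGF and FGF lists, 0 genes were 2-fold apart.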
